A study of Mus musculus with 2 samples.

Results

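Ubiquitin-conjugating enzymes and ubiquitin-specific proteases were described in epididymal white adipose tissue of wild-type male mice and of males without PPARβ/δ, a nuclear receptor encoded by Ppard. The members were all genes whose annotated symbol begins with Ube2 or with Usp and a digit, taken from probe sets that name a single gene. This gave 118 of 22690 probe sets and 66 of 12394 genes, 27 of them Ube2 and 39 Usp genes. The RNA of 5 animals was pooled for each genotype and hybridised to 1 Affymetrix array per pool, so every gene has 1 wild-type and 1 knockout value. The wild-type pool came from males of 12 to 16 weeks, labelled 129S1/SvJae, although the design text calls the controls littermates. The knockout pool came from males of 12 weeks on a mixed Sv129/C57BL/6 background, and all animals ate standard chow. The way the Ppard allele was disrupted was not given in the sources used here. With 1 array per genotype there is no spread between replicates and no test, so all values compare these 2 pools only. Strain, age range and genotype cannot be told apart.

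Ubiquitin is activated by an E1 enzyme, passed to a conjugating enzyme of the Ube2 family and attached to a target protein with the help of a ligase. Proteases of the Usp family take it off again. In spermatids, the haploid cells that become sperm, this system takes part in histone removal, in shaping the acrosome and in clearing cytoplasm, and several members have testis forms or are needed for male fertility. In fat the same enzymes serve general protein turnover. The epididymal fat pad lies against the epididymis and testis.

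Intensities are GCRMA values on a linear scale, and each difference is the knockout log2 value less the wild-type one. A gene was kept when 1 of its probe sets reached an intensity of 32 (log2 of 5) on at least 1 array, and the kept probe set with the highest mean log2 intensity over both arrays represented it. Below the floor only a bound is known, so a fold against such a value is given as at least the fold over 32. The floor was reached by 42.0% of probe sets in wild-type tissue and 43.1% in knockout tissue, and 6533 genes were kept. Ppard itself was below the floor, at 6.58 in wild-type and 6.27 in knockout tissue, so it gives no check of the labels. Adipocyte markers were bright in both pools: 10 of 11 measured markers were above the floor, with summed intensities of 58351 and 39184.

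Most kept Ube2 and Usp genes lay within 2-fold between the pools, as did most kept genes, and a few were far higher in knockout tissue. Of the 66 members, 50 were kept (75.8%, against 52.7% of all genes), 25 of each family. Among the kept members, 8 (16%) were at least 2-fold higher in knockout tissue, where 13.7% of all kept genes were, a share near that background. Only 1 member (2%) was at least 2-fold lower, where 9.14% of all kept genes were. The other 41 lay within 2-fold. Within 0.3 log2 units were 20 members (40%), beside 34.8% of all kept genes. As measured, 6 members (12%) were at least 4-fold higher, beside 7.35% of all kept genes. Among these 6, Ube2t was below the floor in wild-type tissue and is known only to be at least 2.98-fold higher. The median log2 difference was 0.15 for the 50 members and -0.08 for all 6533 genes, with quartiles of -0.30 and 0.60 against -0.50 and 0.42. Of the members 31 (62%) were higher by any amount, compared with 44.4% of all genes. After centring, or after a lowess curve over intensity was subtracted, 32 (64%) and 34 (68%) members were higher, compared with 49.99% and 52.1% of all genes. With dim values set to the floor, the members counted at 2-fold stayed 8 and 1, beside 11.4% and 7.99% of all genes. The members just inside and just outside the 2-fold size were Usp8 (1.12) and Usp20 (0.87) on the higher side, and Ube2r2 (-1.08) and Usp9x (-0.67) on the lower side.

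**Figure D1:**
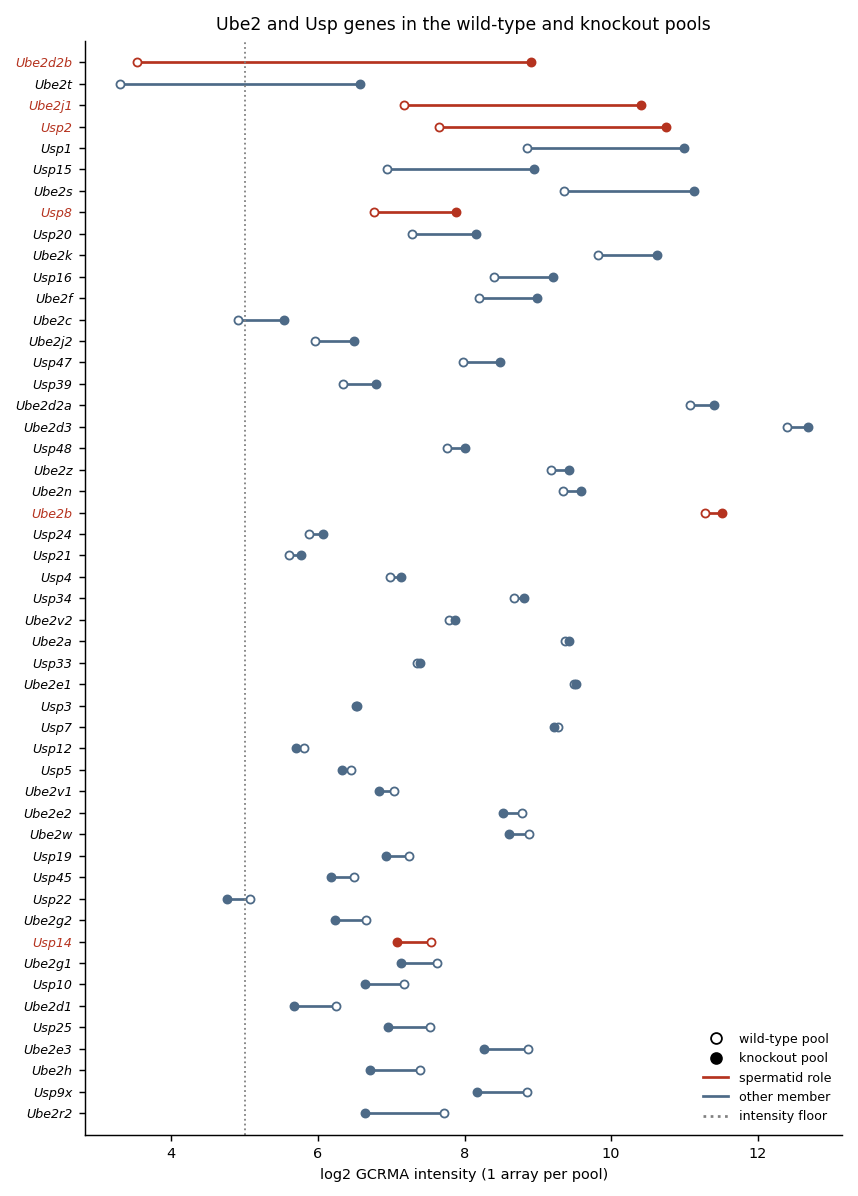
Each row is 1 of the 50 Ube2 and Usp genes above the floor, with its log2 intensity in wild-type tissue (open circle) and the knockout pool (filled circle), ordered by the difference. Red marks genes with known spermatid roles, and the dotted line is the floor at log2 of 5. The longest line is that of Ube2d2b (5.38), and 41 of the 50 lines are shorter than 1 log2 unit.

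Germ cell transcripts were measured in the same pools. All 18 measured spermatid markers, among them the sperm chromatin protein Prm1, were at least 2-fold higher in knockout tissue, with a median difference of 4.94, or 4.60 with dim values raised to the floor. Among those above the floor on both arrays, the fold ran from 9.08 for Prm1 to 87.3 for Meig1, and Gk2, a kinase of the testis, was at least 82.4-fold higher. Their summed intensity was 3740 in wild-type and 72462 in knockout tissue, and 6 of the 18 were below the floor in wild-type tissue. Of 10 meiotic germ cell markers 8 were kept, but 7 of these were below the floor in wild-type tissue and passed it only through knockout tissue, so their count is a description. As measured 7 were at least 2-fold higher (median 3.37, summed intensities of 277 and 3046), and with dim values raised to the floor 6 were (median 1.93). Ddx4, an RNA helicase of germ cells, was at least 45.1-fold higher, and Hormad1, a protein of meiotic chromosomes, at least 1.39-fold. Dmc1 and Stra8 did not reach the floor on either array. Of 8 kept epididymis markers 7 were higher, 1 of them at least 2-fold (median 0.32, summed intensities of 49089 and 57087). The lowest was Cuzd1, at -0.03, which turned positive when differences were centred or detrended, and the highest was Defb1, at 1.57, or 0.94 with its probe sets averaged. Of the Sertoli and Leydig cell markers, Cst9 was at 5.24 and 215, Cyp17a1 at 44.0 and 312 and Sox9 at 37.9 and 39.1, while Amh, Rhox5 and Star were below the floor. The part of these cells in the values that follow was not tested. In pooled tissue RNA, a different number of cells of a type and a different amount of RNA per cell cannot be told apart.

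Genes with known spermatid roles were compared with the rest of the members. The list held Ube2b, Ube2d2b, Ube2j1, Usp2, Usp8, Usp14 and Usp42, of which 6 were kept. It was chosen from textbook knowledge with earlier results of these data in view, so the comparison is a description. Among the 6, 4 were at least 2-fold higher in knockout tissue, 2 lay within 2-fold and none was 2-fold lower. Of those 4, Ube2d2b passed the floor only through knockout tissue, and the dimmer probe set of Ube2j1 was lower there. Among the 44 other kept members, 4 were at least 2-fold higher (9.09%) and 1 lower (2.27%). Of all kept genes, 13.7% were at least 2-fold higher and 9.14% lower. The median log2 difference was 2.11 for the 6 genes, 0.07 for the 44 and -0.08 for all genes, so the medians lay 2.04 apart. The gap was 1.03 without Usp2 and 1.20 when the probe sets of each gene were averaged. The list was spread widely, and its members ranged from -0.46 to 5.38. Its summed intensity was 3139 in wild-type and 6853 in knockout tissue, beside the summed spermatid markers of 3740 and 72462. Ube2b alone, which differed by 0.24, gave 2488 and 2934 of the list's sums.

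**Figure D2:**
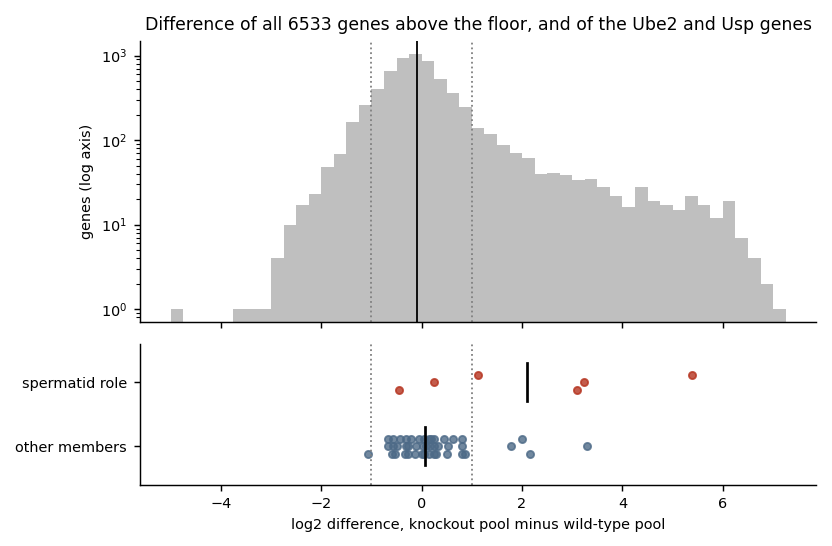
The upper panel counts all 6533 kept genes by log2 difference on a logarithmic axis, with the median (-0.08) as a line, and the lower panel plots the kept Ube2 and Usp genes with and without known spermatid roles, each with its median (2.11 and 0.07). Dotted lines mark 2-fold. Of the 44 other members, 4 lie to the right of the upper dotted line.

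Ube2d2b, a testis form of the Ube2d conjugating enzymes, had the largest difference of all members. It was at 11.5 in wild-type tissue, below the floor, and at 479 in knockout tissue, at least 15.0-fold higher. It has 1 probe set, so no second measurement stands beside it. Its close relatives did not share this difference: Ube2d2a was at 2155 and 2698, and Ube2d3 at 5402 and 6590. The Ube2d genes have similar coding sequences, and the sources used here do not say how well their probes tell them apart.

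Ube2j1, a conjugating enzyme anchored in the endoplasmic reticulum that serves protein disposal there and is needed for normal spermatids, was at 145 in wild-type and 1356 in knockout tissue, 9.38-fold higher. Its other probe set did not follow, with 115 in wild-type and 85.8 in knockout tissue. The 2 probe sets thus differed by 3.23 and -0.43 on the log2 scale. Averaged, they gave 1.40, so Ube2j1 was 2-fold higher by its brighter probe set and by the mean, but not by the dimmer probe set.

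Usp2, a protease with a rhythm in many tissues whose loss impairs male fertility, was at 201 in wild-type and 1713 in knockout tissue, 8.53-fold higher. Its other probe set was at 30.2, below the floor, and at 82.9, with a log2 difference of 1.46. Both probe sets were higher in knockout tissue, but by different amounts. Usp8, a protease of endosomes that has been found at the developing acrosome, was at 109 and 235, 2.17-fold higher, from 1 probe set. Its difference ranged from 1.12 to 1.27 over the alternatives.

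The remaining spermatid-role genes lay within 2-fold or below the floor. Ube2b, a relative of the yeast repair enzyme Rad6 whose loss makes male mice sterile, was bright and similar in both pools, at 2488 and 2934. Its other probe set differed by 0.15 and the brighter one by 0.24. Its paralog Ube2a, carried on the X chromosome, was at 662 and 687, whereas a dimmer probe set of Ube2a was at 72.2 and 33.3. Usp14, a protease bound to the proteasome whose mutation disturbs sperm formation, was lower, at 186 and 135, a log2 difference of -0.46. Usp42, described in round spermatids, was below the floor, at 9.13 and 7.38. The list thus reached from the highest member to one on the lower side.

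The promoters of the spermatid-role genes are shown as a description, and whether a shared factor acts on them was not tested. RefSeq windows (build GRCm38.p6) were matched by gene identifier for 49 of 66 members and for 5 of the 7 spermatid-role genes, the exceptions being Usp14 and Usp42. The windows were searched on both strands for the cyclic AMP response element TGACGTCA, through which the spermatid activator CREM is known to act, for its core TGACG, for TATAAA and for the MYB-type motif AACNGNC. The full element contains the core on each strand. The lines below give 250 bases before and 30 after the annotated start, 5′ to 3′ on the gene's strand, with cores on either strand in capitals (TGACG, or CGTCA where the match is on the other strand). They lie at chr5:107829912-107830191, plus strand for Ube2d2b, chr4:33031130-33031409, plus strand for Ube2j1, chr9:44084670-44084949, plus strand for Usp2, chr2:126707078-126707357, plus strand for Usp8 and chr11:52000757-52001036, minus strand for Ube2b. Ube2a, the paralog of Ube2b (chrX:36874045-36874324, plus strand), is added as a comparison.
Ube2d2b: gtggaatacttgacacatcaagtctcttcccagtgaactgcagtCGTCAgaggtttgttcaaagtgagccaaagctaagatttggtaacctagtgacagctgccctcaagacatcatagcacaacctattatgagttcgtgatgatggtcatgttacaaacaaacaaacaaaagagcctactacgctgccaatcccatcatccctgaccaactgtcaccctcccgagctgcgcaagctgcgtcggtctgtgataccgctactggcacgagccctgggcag
Ube2j1: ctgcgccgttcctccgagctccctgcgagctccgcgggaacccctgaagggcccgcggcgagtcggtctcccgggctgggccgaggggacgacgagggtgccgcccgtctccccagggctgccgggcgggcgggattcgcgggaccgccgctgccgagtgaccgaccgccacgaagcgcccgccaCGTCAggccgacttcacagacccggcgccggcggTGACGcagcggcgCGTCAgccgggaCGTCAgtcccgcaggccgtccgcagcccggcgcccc
Usp2: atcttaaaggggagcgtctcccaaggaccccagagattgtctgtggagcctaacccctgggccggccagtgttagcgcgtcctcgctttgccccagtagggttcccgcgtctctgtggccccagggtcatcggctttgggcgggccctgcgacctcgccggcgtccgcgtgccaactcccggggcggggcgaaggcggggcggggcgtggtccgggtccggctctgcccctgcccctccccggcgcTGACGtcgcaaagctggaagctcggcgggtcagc
Usp8: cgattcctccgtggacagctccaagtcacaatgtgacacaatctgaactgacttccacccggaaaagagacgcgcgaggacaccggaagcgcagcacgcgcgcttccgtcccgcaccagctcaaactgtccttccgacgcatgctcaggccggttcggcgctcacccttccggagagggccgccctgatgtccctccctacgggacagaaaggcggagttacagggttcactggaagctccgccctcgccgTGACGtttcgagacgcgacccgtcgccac
Ube2b: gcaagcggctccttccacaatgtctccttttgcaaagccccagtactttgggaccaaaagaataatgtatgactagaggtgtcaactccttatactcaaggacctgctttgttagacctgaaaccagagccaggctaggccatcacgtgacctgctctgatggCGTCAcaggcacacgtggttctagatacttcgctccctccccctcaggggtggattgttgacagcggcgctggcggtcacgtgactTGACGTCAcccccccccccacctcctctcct
Ube2a: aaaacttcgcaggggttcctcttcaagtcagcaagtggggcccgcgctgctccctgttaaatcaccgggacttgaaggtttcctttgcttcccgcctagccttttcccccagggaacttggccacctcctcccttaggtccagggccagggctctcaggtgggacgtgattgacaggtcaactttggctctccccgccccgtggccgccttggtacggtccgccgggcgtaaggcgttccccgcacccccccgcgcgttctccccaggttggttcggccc

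A core was found in all 5 windows of spermatid-role genes, in 11 of 33 other kept members with a window (33.3%) and in 37.1% of 5318 kept genes with a window. Of all 32851 RefSeq windows 20.8% held one. With the first transcribed base as position 1, Ube2j1 had 4 cores, at positions -65, -31, -18 and -6. In Usp2 the core began at position -4, and in Usp8 at position 2. In Ube2d2b the core lay at position -206. Among these 5 genes the full element was found in the shown window of Ube2b alone, across its start, and 3.72% of kept genes with a window held it. Whether matches go with the differences was not tested. A further Ube2b window held 1 core. TATAAA was in none of the 5 and in 8.99% of kept genes. The MYB-type motif was in Ube2d2b and Usp8, 2 of 5, against 38.5% of kept genes. Of the 3 members outside the list that were at least 2-fold higher and had a window, Ube2s had a core, at position -94, and Ube2t and Usp15 had none. Ube2a had none either. A match is a string of letters in the window and does not show that a factor binds there.

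**Figure D3:**
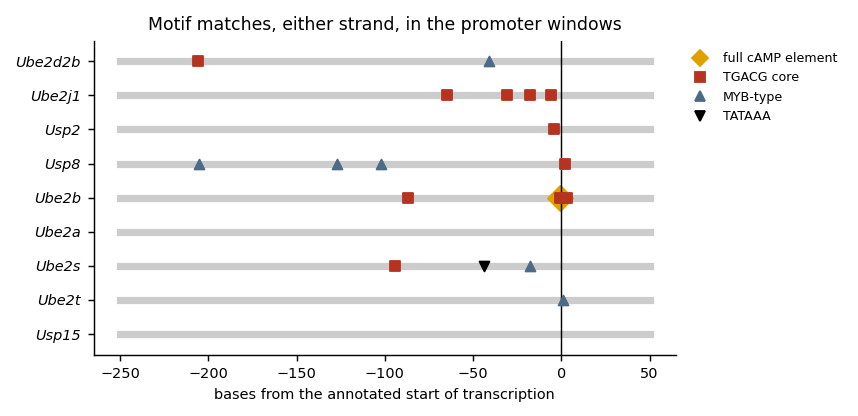
Motif matches on either strand are plotted by the distance of their first base from the annotated start, for 1 window of each gene (250 bases before to 50 after). The 5 spermatid-role genes on top each have the core TGACG (squares), at positions from -206 (Ube2d2b) to 3 (Ube2b), and Ube2s has 1 at position -94, whereas Ube2a, Ube2t and Usp15 have none.

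Outside the spermatid-role list, 4 members were at least 2-fold higher: Ube2t, Usp1, Usp15 and Ube2s. Ube2t, the conjugating enzyme of the Fanconi anaemia pathway, was at 9.80 in wild-type tissue, below the floor, and at 95.4 in knockout tissue, at least 2.98-fold higher. Usp1, the protease that reverses the same modification and whose loss leaves male mice infertile, was at 460 and 2048, 4.45-fold higher. All 3 probe sets of Usp1 were higher, by 2.15 to 2.96 on the log2 scale. Wdr48, the activating partner of Usp1, was at 91.0 and 430, 4.72-fold higher, and by 0.94 at the lower of its probe sets. The list of conjugating enzymes of DNA damage and non-degradative chains held 6 kept genes with a median of 0.16, of which 5 lay within 2-fold. Ube2t was its highest, and Ube2v1, a partner of Ube2n, its lowest at -0.20. Of the proteases of DNA repair, 3 of 4 were higher (median 0.38), with Usp45 lowest at -0.32.

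Ube2s, which extends ubiquitin chains for the anaphase-promoting complex, was at 655 and 2241, 3.42-fold higher. This probe set has a name ending that Affymetrix gives to probes shared between transcripts of different genes, and the other Ube2s probe set was below the floor. Ube2c, which starts the chains that Ube2s extends, was at 30.1, below the floor, and at 46.4, at least 1.45-fold higher. Usp15, a protease of receptor and SMAD signalling, was at 123 and 495, 4.01-fold higher, from 1 probe set. The summed spermatid markers, at 3740 and 72462, moved the same way as all of these genes, and their part was not tested.

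The general conjugating enzymes lay mostly within 2-fold. Of the Ube2d and Ube2e families, 4 of 7 kept genes were higher and 3 lower, with a median of 0.02 and Ube2d2b (5.38) as the highest. Ube2e1 was nearly equal in the pools, at 724 and 735, whereas Ube2e3 was at 466 and 308. Of the enzymes of the endoplasmic reticulum, 2 of 4 were higher, with a median of 0.05 and Ube2j1 (3.23) as the highest. The lowest was Ube2g1, which serves protein disposal there, at 197 and 141. Ube2f, which conjugates the ubiquitin-like protein NEDD8, was at 293 and 510, and its 4 probe sets were all higher, by 0.31 to 0.80. The names of all 4 have endings counted as shared sequence, as explained below. The other enzyme of ubiquitin-like proteins with a probe set, the ISG15 conjugating enzyme Ube2l6, was below the floor. Among the remaining conjugating enzymes (5 kept, median -0.27), Ube2k was highest, at 907 and 1586. Ube2r2, a relative of the cell cycle enzyme Cdc34, was the member with the largest difference on the lower side, at 211 and 100, 2.11-fold lower. Its difference was -0.99 when centred and -0.92 with the intensity trend removed, so it did not always reach 2-fold. Adipocyte markers were lower in the same pool, 6 of 10 at least 2-fold (median -1.15, summed 58351 and 39184), and their part was not tested.

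The proteases of histones differed little. Of 5 kept genes 3 were higher and none reached 2-fold, with a median of 0.01. Usp16, a protease of ubiquitylated histone H2A, was at 338 and 588. Usp3, another histone protease, had the smallest difference of all members, at 92.0 and 92.9. Usp22, the protease of the SAGA complex, was at 33.8 and 27.0, the latter below the floor. Of 5 kept proteases of the proteasome, endosomes and free chains, 2 were higher (Usp2 and Usp8) and 3 lower, with a median of -0.13. Usp25 was lowest there, at 185 and 124. Of the 10 other kept proteases, 7 were higher (median 0.15). Usp20 was at 156 and 286, and both of its probe sets were higher as measured, by 0.87 and 0.92. The second was at 17.7 in wild-type tissue, below the floor, and at 33.4 in knockout tissue, at least 1.04-fold higher. Its relative Usp33 was at 163 and 168. Usp9x, a large protease carried on the X chromosome, was at 461 and 289 at the probe set that represents it. Of 4 genes with other male germ cell roles, Usp1 was high as described, Ube2w was at 471 and 390, and Usp26 and Usp9y were below the floor.

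The probe sets of 1 gene often disagreed among the members. Of 19 members with several probe sets above the floor, 9 (47.4%) had probe sets pointing in opposite directions, compared with 27.1% of 2137 genes with several. The differences lay at least 1 log2 unit apart in 7 of the 19 (36.8%), compared with 13.9% of these genes. The median SD across the probe sets of a gene was 0.45 in the members and 0.25 in all genes. The members and all genes were not matched for the number of probe sets per gene, up to 7 in a member, and its part was not tested.

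Usp12, a protease that Wdr48 also activates, had the widest range after Ube2j1 as measured, which rests on a value below the floor. The probe set that represents it was at 56.1 in wild-type and 52.0 in knockout tissue. Another was at 12.2, below the floor, and at 87.6, at least 2.74-fold higher, and the last was below the floor on both arrays. Usp12 was therefore within 2-fold at its representative probe set, and higher by an amount known only as a lower bound at the other. Ube2d3 had 7 probe sets with differences from -0.93 to 0.49. Of these, 5 were lower and 2 higher in knockout tissue, and the one that represents the gene was among the higher. The direction of Ube2d3 thus turned, from 0.29 at that probe set to -0.30 over their mean and to -0.67 without probe sets of shared sequence. Counted as shared sequence were all names ending in _a_at, _s_at or _x_at, a wider group than the ending explained for Ube2s. The probe set that represents Ube2d3 is among them. The 4 probe sets of Ube2d2a ran from -0.45 to 0.64, and the 6 of Usp9x from -0.67 to 0.53. Those of Ube2a gave 0.05 and -1.12. By contrast the probe sets of Usp1, Ube2f, Usp20 and Ube2b each pointed 1 way as measured. Those of Ube2f all have names counted as shared sequence, and 1 wild-type value of Usp20 was below the floor. Over all 84 member probe sets above the floor, 12 (14.3%) were at least 2-fold higher and 2 (2.38%) lower, compared with 12.5% and 8.99% of all 9637 such probe sets.

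**Figure D4:**
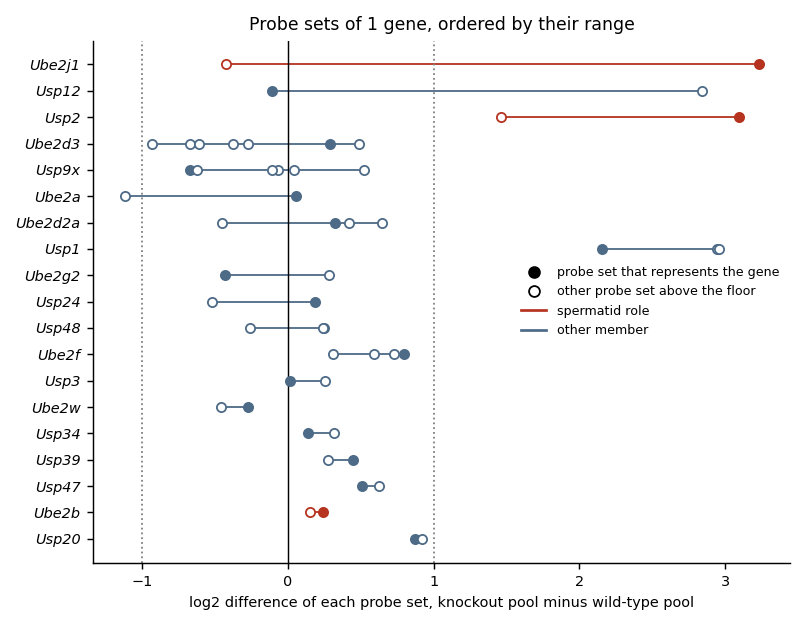
Each row is 1 of the 19 members with several probe sets above the floor, and each circle the log2 difference of 1 probe set (filled where it represents the gene), ordered by their range. Dotted lines mark 2-fold. In 9 rows the circles lie on both sides of 0, and Ube2j1 has the widest row, from -0.43 to 3.23.

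The remaining 16 members were below the floor on both arrays, 2 Ube2 and 14 Usp genes. They were Ube2l6, Ube2o, Usp11, Usp13, Usp17la, Usp18, Usp26, Usp27x, Usp29, Usp36, Usp38, Usp42, Usp43, Usp49, Usp53 and Usp9y. The intensities of their 19 probe sets ran from 6.38 to 22.1. Among them are genes linked to the testis (Usp26, Usp9y, Usp42) and the interferon-induced proteases and enzymes of ISG15 (Usp18, Ube2l6). No difference can be read from values this dim.

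Other genes of the pathway were taken from lists made up of the remaining classes. The ubiquitin-like modifiers differed little, with none of 4 kept genes at 2-fold and a median of -0.05. Atg12, a modifier of autophagy, was highest at 81.1 and 105, and Ufm1 lowest at 142 and 83.0. The E1 enzymes were alike, none of 3 reaching 2-fold (median 0.02), from the SUMO-activating subunit Sae1 (0.36) to the NEDD8-activating subunit Uba3 (-0.34). The cofactors of Usp proteases ranged from the Usp1 partner Wdr48, the only 1 of 7 past 2-fold, to the endosomal adaptor Stam, at a difference of -0.31, with a median of -0.05.

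Ubiquitin ligases with male germ cell roles held several genes with large differences. Of 15 kept genes, 6 were at least 2-fold higher as measured and none 2-fold lower. Of the 15, 4 were below the floor in wild-type tissue and passed it only through knockout tissue, and with dim values raised to the floor 5 were 2-fold higher. The median was 0.81 as measured, or 0.15 with dim values raised. Of all kept genes, 13.7% were at least 2-fold higher as measured and 9.14% lower, or 11.4% and 7.99% with dim values raised. Asb17, a ligase subunit of the testis, was at 8.80, below the floor, and at 749, at least 23.4-fold higher. Klhl10, which recruits the cullin Cul3 in spermatids and was picked after its values were seen, was at 14.7, below the floor, and at 890, at least 27.8-fold higher. Rnf20, the histone H2B ligase that works with Ube2b and Ube2a, was lowest at 405 and 223. Of 13 kept deubiquitinases outside the Usp family, 3 were at least 2-fold higher, as measured and with dim values raised, with a median of 0.42 or 0.02. Of these 13 genes 3 were below the floor in wild-type tissue. Otub1 alone was 2-fold lower as measured (-1.04), and it was not when centred (-0.96) or with dim values raised (-0.63). Otub2 was at 13.6, below the floor, and at 801, at least 25.0-fold higher. Its relative Otub1 was at 49.4 and at 24.0, below the floor, at least 1.54-fold lower. These genes were measured beside spermatid markers with summed intensities of 3740 and 72462.

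**Figure D5:**
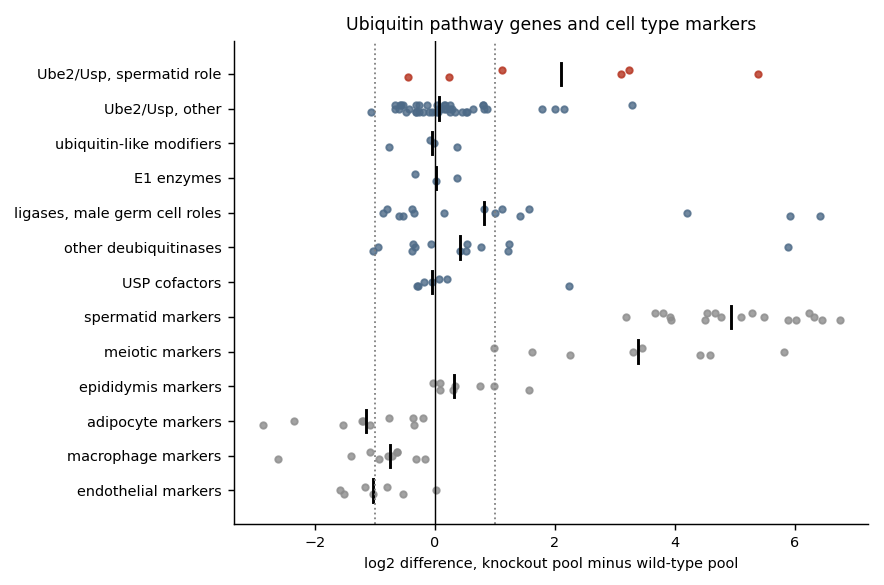
Log2 differences of the kept genes of each list, 1 point per gene with the median as a bar and dotted lines at 2-fold. Differences are as measured, values below the floor included. The 18 spermatid markers all lie to the right of the upper dotted line, with the 6 spermatid-role Ube2 and Usp genes between -0.46 and 5.38, and the E1 enzymes and ubiquitin-like modifiers between -0.77 and 0.37.

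Markers of the somatic cells of the fat pad were mostly lower in knockout tissue. Of the 10 kept adipocyte markers all were lower, from Fabp4, a fatty acid carrier, at -0.20 to Lep, the hormone leptin, at -2.87, and Acvr1c was below the floor. Of 10 kept macrophage markers all were lower, 3 at least 2-fold (median -0.75, summed intensities of 5615 and 3396). Of 7 kept endothelial markers 6 were lower, 4 at least 2-fold (median -1.04, summed intensities of 861 and 458). Cldn5 was nearly equal, at 141 and 143, and Kdr was below the floor. Of all 6533 kept genes, 3629 were lower by any amount and 9.14% at least 2-fold lower. Apart from Ube2r2, the lower members all lay within 2-fold, the next being Usp9x at -0.67 and Ube2h, the conjugating enzyme of a nuclear and cytosolic ligase complex, at 167 and 105.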

How the data were processed

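The authors deposited probe set intensities made with GCRMA 2.20, per the submitters' processing notes, and the values (1.91 to 36322) are on a linear scale. GCRMA corrects background from probe sequence and normalises quantiles, and the set of arrays it was run on was not given in the sources used here. Each intensity was taken to log2. Of the probe sets 20393 named 1 gene, 691 several and 1606 none, and only the first were used. The design text names a larger array than the one annotated. Genes, floor, 2-fold size and lists were applied as described in the report. The members and lists were chosen with earlier results of these data known. Named genes are the spermatid-role list, kept members at least 2-fold different, the 3 brightest (Ube2d3, Ube2b, Ube2d2a), the 3 nearest to no difference, both sides of the 2-fold size and the extremes of each list. Others named, Klhl10, Cyp17a1, Meig1, Ube2a, Ube2h and the members below the floor among them, were chosen after their values were seen. No test between genotypes was possible, and arrays, not depth, limit precision. Updated symbols gave the same 118 probe sets. Overlapping promoter windows on opposite strands were reverse complements in 1892 of 1892 cases. Python 3.11.15, pandas 2.3.3 and statsmodels 0.14.6 were used, and the scripts were tested on simulated data.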

Additional observations from a re-analysis of the deposited data

How the results depend on the processing

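The processing was varied in the floor (log2 of 4, log2 of 6 or none), the averaging of probe sets, the exclusion of probe sets of shared sequence, centring, removal of the trend with intensity and the setting of dim values to the floor. The number of members at least 2-fold higher stayed between 6 and 9, and the median of all members between 0.05 and 0.29. The number at least 2-fold lower, 1 as reported, was 0 without probe sets of shared sequence, when centred and with the trend removed. The median of the spermatid-role genes, 2.11 as reported, was 1.12 with no floor, where Usp42 enters, 1.26 with probe sets averaged and 1.29 without probe sets of shared sequence. It was 1.12 without Usp2 and 1.64 with Usp1, Usp26, Usp9y and Ube2w added. Its distance from the other members' median, 2.04 as reported, was in the same order 1.08, 1.20, 1.27, 1.03 and 1.57. It was positive under each alternative run, but these re-used the same 2 arrays and a list chosen with earlier results in view. Of the 54 named genes none that was past 2-fold changed sign. Usp12, Ube2d3 and Cuzd1, within 2-fold as reported, did so under some settings. The 2-fold size was no longer reached by Defb1 with probe sets averaged (0.94), by Otub1 when centred or with dim values raised, and by Ube2r2 when centred or detrended. It was reached by Usp20 when detrended (1.01), by Hormad1 when centred (1.06, from a dim wild-type value), and by Usp12 through a probe set that is dim in wild-type tissue. No paired analysis was possible because each genotype has 1 array. Signal over background limits the 16 members below the floor, the wild-type values of Ube2d2b, Ube2t and Ube2c and the knockout value of Usp22.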

Other observations

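Of the probe sets, 7 name a Ube2 or Usp gene together with other genes and entered none of the comparisons. Of these, 4 name Ube2l3, a conjugating enzyme of several ligases, with predicted genes. They were at 148 and 117, at 87.3 and 72.6, at 116 and 85.0, and at 913 and 1294 in the wild-type and knockout pools, so 3 were lower and 1 higher in knockout tissue. The probe set of Usp50 and the RNA polymerase subunit Polr2l was at 1438 and 1011. The 2 probe sets of Usp17ld and Usp17lc were below the floor.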
